A study of Cricetulus griseus with 40 samples.

Results

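The genes described here make proteins that repair broken, crosslinked or mispaired DNA, or that stop the cell cycle while the damage lasts. They were taken by name: 38 symbols were listed, and 36 were found among the 26793 gene IDs of the files. Fancc and Atm were not analysed here. The cells were CHO-S, a suspension-growing derivative of the Chinese hamster ovary line and a common host for recombinant proteins. They grew as batch cultures in shake flasks, in medium with added glutamine, an anti-clumping agent and antibiotics, with no feed and no DNA-damaging treatment described. RNA was sampled at intervals of 12 h, the earliest samples at 72 h and the latest at 180 h of culture, which gives 10 time points with 4 libraries apiece (40 libraries). The time points share the line, the medium and the incubator, and no library is tied by its labels to a flask, so p-values reflect the variation among same-time libraries, some of which may be technical.

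Homologous recombination copies an intact sister chromatid to mend a double-strand break. The Mre11, Rad50 and Nbn complex senses the break and its ends are cut back to single strands, BRCA1 with BARD1 and then PALB2 with BRCA2 prepare the strands for exchange, and helicases and nucleases take the joined molecules apart. The Fanconi proteins feed DNA crosslinks into the same route: a core complex attaches ubiquitin to the FANCD2 and FANCI pair. ATR with CHK1, and ATM with CHK2, are the kinases that signal damage to the cell cycle. Since a sister chromatid exists only after replication, many of these genes are known to be transcribed mainly in cells that are replicating or dividing.

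The values are FPKM, fragments scaled to transcript length and library size, so that levels can be set side by side between genes. A library's FPKM summed to between 463992 and 575241. Absolute depth is unknown, and relative depth, read from the steps between low values, ran from 0.821 to 1.239. Vimentin, Vim, was at 472 to 874 FPKM in all 40 libraries, whereas Ptprc, Cd3e and Hbb, markers of blood cells, were listed at 0 in all of them, and of the 13 markers of foreign cell types that the files list, 12 failed the filter used for testing. A shared axis of variation between libraries of the same time held 52.4% of the variance within times, and replicate 1 of 96 h and replicate 4 of 84 h lay farthest out on it (scores -2.65 and -2.38 SD).

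At 72 h the levels of the 36 genes spanned a wide range. Brca1 was the highest, at 45.4 ± 1.71 FPKM (mean ± SD, n = 4 here and throughout), followed by the helicase gene Blm (33.3 ± 2.35), Fancd2 (31.8 ± 1.59) and Mnd1 (29.6 ± 3.84). In all, 17 genes were above 10 FPKM and 18 between 2 and 10 FPKM. Fancf, a small adaptor of the Fanconi core complex, was the exception, at 0.421 ± 0.0573 FPKM. By 180 h, Brca1 (34.3 ± 2.66 FPKM) and Rbbp8 (13.0 ± 1.70 FPKM) were the 2 genes still above 10 FPKM, and 5 genes were below 1 FPKM. The summed level of the 36 genes was 174 ± 12.3 FPKM at 180 h, against 453 ± 15.1 FPKM at 72 h, with no overlap between libraries (160 to 190 against 436 to 470 FPKM). In bulk RNA, fewer cells in a state that expresses a gene and less RNA per cell cannot be told apart.

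Over the 10 times 30 of the 35 genes tested differed, against 49.9% of all genes tested (limma F test). Between 180 h and 72 h, 31 members were lower and 0 higher, against 33.5% and 15.8% of the 12259 genes tested (limma on log2(FPKM + 1), Benjamini-Hochberg adjusted p under 0.05). A gene was tested if it reached 1 FPKM in 4 or more libraries, which 35 of the 36 did and Fancf did not. The 35 reached 1 FPKM in all 4 libraries of 72 h and in at least 24 of the 40 libraries. The median log2 change of the 35 was -1.32, beside -0.10 for all genes tested. With median-ratio scaling of the libraries, 29 members were lower and 0 higher, and the calls over all genes were 2696 higher and 2988 lower, against 1938 and 4101 without it. Without that scaling, 25 of the 31 were lower by at least 2-fold on the log2(FPKM + 1) scale. On the same scale 0 members were higher by as much, against 5.07% lower and 4.52% higher of all genes. In 30 of the 35 every library of 180 h lay below every library of 72 h, against 30.8% of all genes. With array weights, which count libraries that fit poorly for less, 31 members were lower and 2 were higher, Mus81 (0.55, adjusted p = 0.00102) and Xrcc3 (0.42, adjusted p = 7.33e-04). At an unadjusted p under 0.05 by the test without weights, 0 of the 35 were higher.

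**Figure D1:**
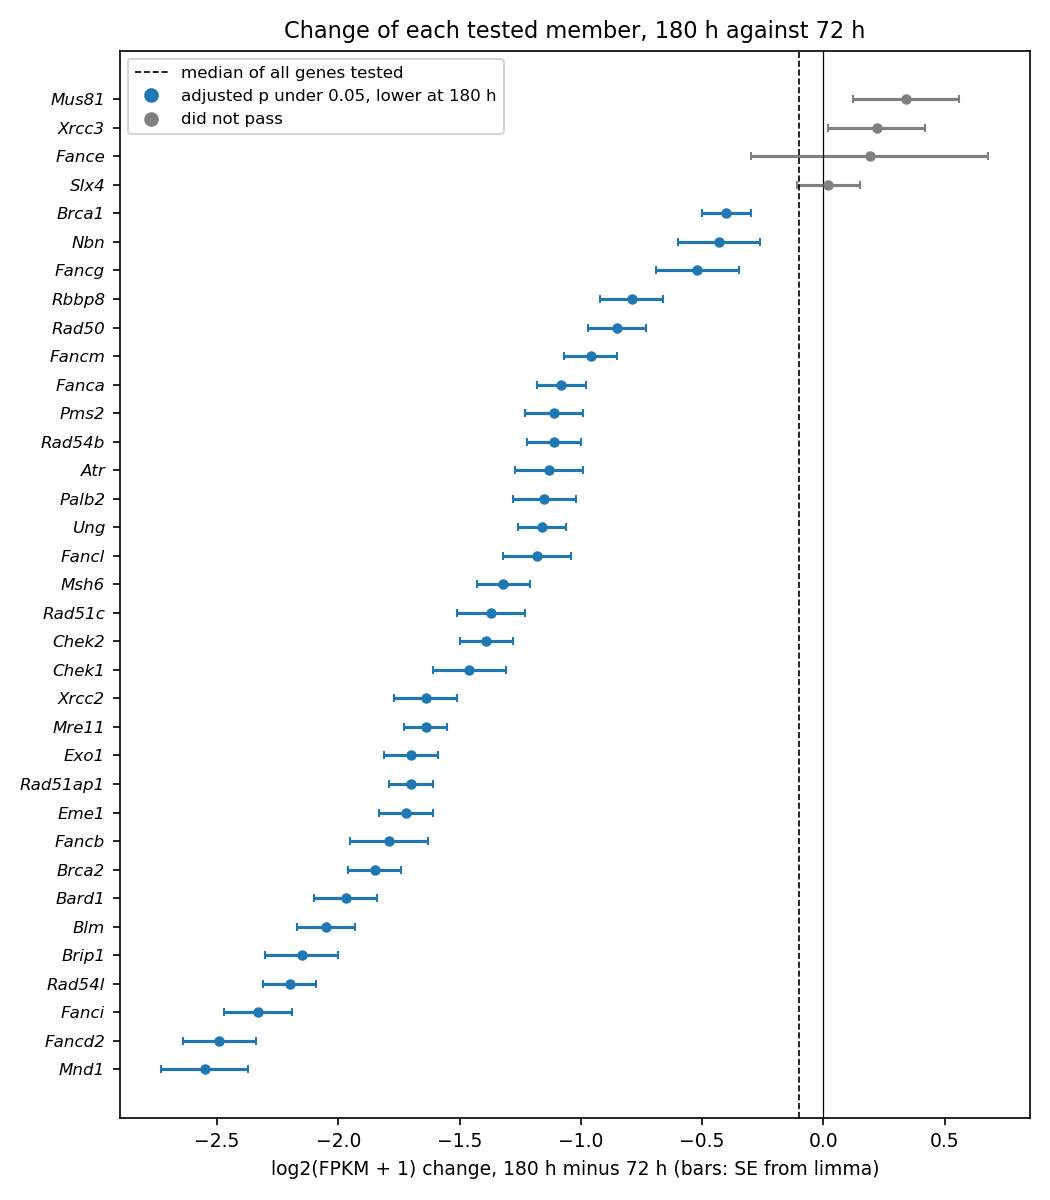
Change of each of the 35 tested genes on the log2(FPKM + 1) scale, 180 h minus 72 h, with the SE from limma as bars. The points run from Mnd1 at -2.55 to Mus81 at 0.34, the 4 grey points did not pass, and the dashed line marks the median of all genes tested, -0.10.

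Among the genes of the recombination core, Mnd1 had the most negative estimate. Its protein, with HOP2, promotes the pairing of homologous sequences and is best known from meiosis. Mnd1 had 3.64, 3.05, 4.55 and 6.05 FPKM in the libraries of 180 h, against 34.3, 30.7, 25.1 and 28.5 FPKM in those of 72 h. The groups lay far apart, the lowest library of 72 h being over the highest of 180 h by a wide margin (log2 change -2.55 ± 0.18 SE, adjusted p = 6.54e-14, limma). Of the 12259 genes tested, 30 had a more negative estimate. Rad54l, a motor protein gene whose product remodels DNA during strand exchange, had 2.34, 3.17, 2.79 and 3.35 FPKM at 180 h, against 16.9, 17.1, 16.4 and 17.0 FPKM at 72 h. Its 4 libraries of 72 h varied little (SD 0.292 FPKM), and its change was -2.20 ± 0.11 (adjusted p = 6.42e-18).

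Brca2, a mediator of strand exchange, and Bard1, the obligate partner of BRCA1, were low-level genes that came close to 1 FPKM. Brca2 had 0.763, 0.638, 0.847 and 1.08 FPKM at 180 h, against 5.47, 5.47, 5.22 and 6.18 FPKM at 72 h (-1.85 ± 0.11, adjusted p = 1.10e-15). Bard1 had 0.861, 0.540, 0.908 and 0.896 FPKM at 180 h, against 5.13, 6.35, 6.18 and 6.45 FPKM at 72 h (-1.97 ± 0.13, adjusted p = 1.17e-14). Neither gene's groups overlapped, and on the plain FPKM scale the means at 180 h were 0.149 and 0.133 of those at 72 h, a larger drop than the log2(FPKM + 1) values show for genes this low.

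Brca1 did otherwise. It had 31.8, 34.5, 32.9 and 37.9 FPKM at 180 h, against 44.0, 47.5, 46.0 and 44.0 FPKM at 72 h. The 2 groups did not overlap, but the mean at 180 h was still 0.756 of that at 72 h (-0.40 ± 0.10, adjusted p = 0.00173). This call rests on the scaling: with median-ratio scaling of the libraries the change was -0.26 with an adjusted p of 0.0548. Brca1 made up 19.7 ± 0.567% of the summed FPKM of the 36 genes at 180 h, against 10.0 ± 0.415% at 72 h.

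Of the other 6 genes of the recombination core, 5 fell. Palb2, whose product bridges BRCA1 and BRCA2, had 5.09, 6.90, 6.35 and 7.34 FPKM at 180 h, against 16.3, 17.2, 14.6 and 13.5 FPKM at 72 h (-1.15 ± 0.13). Xrcc2, whose product acts in the strand exchange step, had 0.990, 1.27, 0.974 and 1.22 FPKM at 180 h, against 5.76, 5.48, 5.53 and 5.58 FPKM at 72 h (-1.64 ± 0.13). Both fell with no overlap between the times, and so did Rad51ap1, whose product stimulates strand exchange (-1.70 ± 0.09), Rad51c (-1.37 ± 0.14) and Rad54b (-1.11 ± 0.11). Rad54b, the relative of Rad54l, had 0.672, 0.992, 1.02 and 0.770 FPKM at 180 h, against 3.43, 3.43, 2.68 and 2.62 FPKM at 72 h. Xrcc3, another gene of that step, did not pass: it had 8.66, 9.35, 8.00 and 6.14 FPKM at 180 h, against 6.02, 5.07, 8.14 and 7.93 FPKM at 72 h, and these groups overlapped (0.22 ± 0.20, adjusted p = 0.364).

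**Figure D2:**
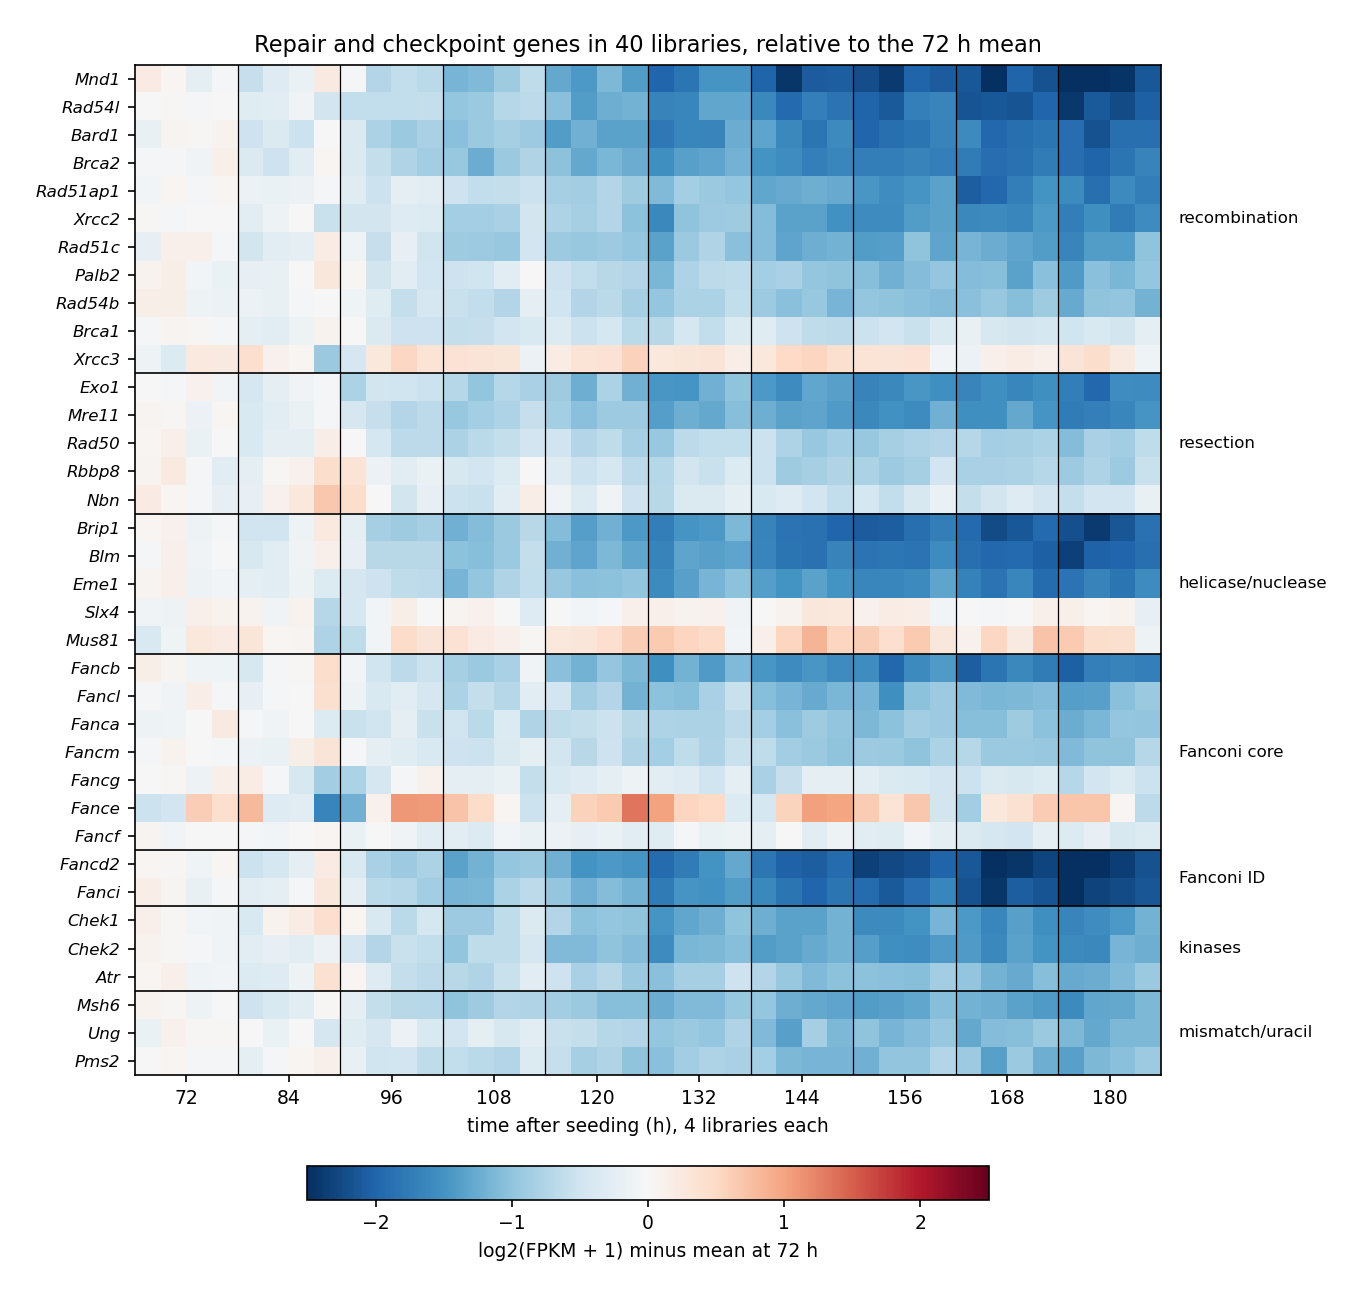
Level of each of the 36 genes (rows, grouped by role) in each of the 40 libraries (columns, by time after seeding), as log2(FPKM + 1) minus the gene's mean at 72 h. Blue deepens from left to right in most rows, while Xrcc3, Slx4, Mus81 and Fance stay near or above 0 in most libraries, and Fancf, below 1 FPKM throughout, barely colours.

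Of the genes that sense and process broken ends all 5 fell, by unequal amounts. Mre11, the nuclease of the complex, had 5.57, 5.77, 6.16 and 7.0 FPKM at 180 h, against 22.2, 21.5, 19.0 and 21.8 FPKM at 72 h (-1.64 ± 0.09, adjusted p = 5.68e-16). Rad50, the subunit that tethers the ends, had 5.40, 6.74, 6.44 and 7.70 FPKM at 180 h, against 13.0, 13.7, 11.1 and 12.5 FPKM at 72 h (-0.85 ± 0.12). Nbn, which recruits the damage kinase to the complex, averaged 4.20 ± 0.657 FPKM at 180 h and 6.02 ± 0.840 FPKM at 72 h, and its groups overlapped. Its fall is the least secure of the 31 (-0.43 ± 0.17, adjusted p = 0.0341). Adjusted p was 0.0647 to 0.108 without replicate 1 or 2 of 72 h or replicate 1, 2 or 3 of 180 h, 0.132 with median-ratio scaling and 0.0514 without the filter. Exo1, the exonuclease of long-range resection, averaged 0.647 ± 0.207 FPKM at 180 h and 4.33 ± 0.283 FPKM at 72 h (-1.70 ± 0.11). Rbbp8, which encodes the resection starter CtIP, kept a higher level, 13.0 ± 1.70 FPKM at 180 h and 23.3 ± 3.42 FPKM at 72 h (-0.79 ± 0.13).

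The helicases and nucleases divided. Blm, whose helicase dissolves joined molecules, had 5.83, 7.48, 7.66 and 8.25 FPKM at 180 h, against 32.6, 36.6, 31.2 and 32.8 FPKM at 72 h (-2.05 ± 0.12, adjusted p = 4.57e-16). Brip1, a helicase gene that is also counted as a Fanconi gene, had 1.30, 0.999, 1.38 and 1.88 FPKM at 180 h, against 9.93, 10.4, 8.63 and 9.26 FPKM at 72 h (-2.15 ± 0.15). Eme1, the regulatory subunit of the MUS81 nuclease, had 1.13, 1.41, 1.15 and 1.57 FPKM at 180 h, against 7.0, 7.30, 5.98 and 6.28 FPKM at 72 h (-1.72 ± 0.11). All 3 were without overlap between the times. Mus81 itself, the catalytic subunit, had 7.58, 6.41, 6.19 and 3.99 FPKM at 180 h, against 3.21, 4.06, 5.57 and 5.30 FPKM at 72 h. These libraries overlapped and the change did not pass (0.34 ± 0.22, adjusted p = 0.195). Slx4, the scaffold that holds several nucleases, averaged 5.05 ± 0.602 FPKM at 180 h and 4.95 ± 0.511 FPKM at 72 h (0.02 ± 0.13, adjusted p = 0.905).

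In the Fanconi pathway both genes of the ubiquitin-accepting pair fell, with more negative estimates than any tested gene of the core complex, a difference that was not tested. Fancd2 had 4.08, 3.94, 5.38 and 6.21 FPKM at 180 h, against 32.7, 32.2, 29.4 and 32.8 FPKM at 72 h (-2.49 ± 0.15, adjusted p = 7.19e-16). Fanci had 1.60, 2.22, 2.41 and 2.67 FPKM at 180 h, against 17.0, 15.8, 13.2 and 14.7 FPKM at 72 h (-2.33 ± 0.14, adjusted p = 1.50e-15). Among all genes tested, 40 had a more negative estimate than Fancd2 and 73 than Fanci. Of the core complex and its DNA anchor 5 of 6 tested genes fell. Fancb averaged 2.08 ± 0.350 FPKM at 180 h and 9.62 ± 0.979 FPKM at 72 h (-1.79 ± 0.16). Fancl, the ubiquitin ligase, averaged 4.06 ± 0.794 FPKM at 180 h and 10.4 ± 0.885 FPKM at 72 h (-1.18 ± 0.14). Fanca averaged 1.59 ± 0.233 FPKM at 180 h and 4.50 ± 0.629 FPKM at 72 h (-1.08 ± 0.10). These 3 did not overlap between the times. Fancm, the translocase that anchors the complex, changed by -0.96 ± 0.11 and Fancg by -0.52 ± 0.17 (adjusted p = 0.0102). Fance, which touches FANCD2, varied too widely to call: it had 7.42, 7.39, 4.38 and 2.30 FPKM at 180 h, against 2.57, 2.72, 7.0 and 5.92 FPKM at 72 h (0.19 ± 0.49, adjusted p = 0.768). Fancf, untested, was at 0.0773 to 0.232 FPKM at 180 h and 0.352 to 0.488 FPKM at 72 h.

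All 3 checkpoint kinase genes fell, and none of their groups overlapped. Chek1, whose kinase restrains cells with stalled replication forks, had 5.53, 5.98, 6.57 and 8.05 FPKM at 180 h, against 21.4, 20.0, 18.6 and 18.3 FPKM at 72 h (-1.46 ± 0.15, adjusted p = 4.08e-10). Chek2, whose kinase acts after double-strand breaks, had 3.13, 3.08, 4.58 and 4.32 FPKM at 180 h, against 12.2, 11.7, 11.1 and 10.7 FPKM at 72 h (-1.39 ± 0.11, adjusted p = 8.98e-13). Atr, the kinase upstream of CHK1, averaged 4.22 ± 0.581 FPKM at 180 h and 10.4 ± 0.797 FPKM at 72 h (-1.13 ± 0.14). The 3 genes that act on mispaired or wrong bases fell too, without overlap. Msh6, whose product senses mismatches, had 7.12, 8.99, 9.05 and 10.2 FPKM at 180 h, against 25.0, 24.0, 21.4 and 23.4 FPKM at 72 h (-1.32 ± 0.11). Pms2, which nicks the faulty strand, had 3.10, 3.86, 4.10 and 4.65 FPKM at 180 h, against 9.66, 9.89, 9.25 and 9.35 FPKM at 72 h (-1.11 ± 0.12). Ung, the glycosylase that removes uracil from DNA, averaged 4.85 ± 0.322 FPKM at 180 h and 12.1 ± 1.09 FPKM at 72 h (-1.16 ± 0.10).

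The 4 genes that did not pass, and Fancg, the weakest call of the core complex, are the 5 that did not pass the test over all times. That test comes from the same fit as the comparison of 180 h with 72 h, so it is not a separate measure. On the axis that separates libraries of the same time, Fance moved by 0.61 on the log2 scale per SD of the score, Mus81 by 0.25, Xrcc3 by 0.23, Fancg by 0.16 and Slx4 by 0.14. The other 30 tested members moved by -0.18 to 0.02. The 2 libraries farthest out were the lowest of their time in both Fance and Mus81. The part of this axis in these results was not tested. Overlap with another gene is a further limit: 19 of the 36 genes overlap another gene in the reference table, 13 of them a protein-coding one, and the strand setting of the authors' counting is not given in the sources used here, so reads of overlapping genes cannot be told apart. Xrcc3 overlaps Klc1 (0.08 ± 0.08, adjusted p = 0.460), Rad54l overlaps Lrrc41 (0.00 ± 0.29), and Fanci overlaps Polg (0.29 ± 0.23), each value being the log2 change of the neighbour at 180 h against 72 h. Of the 12 protein-coding neighbours tested, 4 fell: Fsbp, which overlaps Rad54b (-0.79 ± 0.10, adjusted p = 5.25e-08), Vrk2, which overlaps Fancl (-0.63 ± 0.12, adjusted p = 6.99e-05), Gas2, which overlaps Fancf (-1.77 ± 0.14, adjusted p = 3.08e-12), and Vwa8, which overlaps Fance (-0.27 ± 0.07, adjusted p = 0.00132). Znf276, which overlaps Fanca, rose (0.47 ± 0.18, adjusted p = 0.0282). The part of shared reads in the values of these members was not tested. Mus81 and Blm stand on 2 lines of each file, which were summed.

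Calls against 72 h accumulated over the early times. At 84 h 0 members were called against 72 h by limma, and at 96 h 19 were lower, against 4.65% of all genes. The comparison of 108 h called 27 lower (11.2% of all genes), that of 120 h 29 (21.5%) and that of 132 h 29 (25.9%). For 144 h it was 31 (29.9%), for 156 h 29 (30.5%), for 168 h 31 (31.9%) and for 180 h 31 (33.5%). At 84 h 0.571% of all genes were lower. In each of the 9 comparisons 0 members were called higher, while the share of all genes called higher was 0.742% for 84 h, 2.63% for 96 h, 7.46% for 108 h, 12% for 120 h and 13.7% for 132 h. It was 17% for 144 h, 15.7% for 156 h and again for 168 h, and 15.8% for 180 h. These 9 comparisons share the libraries of 72 h. Of the 31 members called at 180 h, 19 were first called at 96 h, among them Bard1 (-0.72, adjusted p = 3.01e-04), Fancd2 (-0.72, adjusted p = 0.00131), Brip1 (-0.70) and Mre11 (-0.59). Another 8 were first called at 108 h, including Chek1, Atr, Mnd1 and Rad51c. Palb2 and Rbbp8 followed at 120 h, and Nbn and Fancg at 144 h. For 6 genes, among them Chek1, Nbn, Rbbp8 and Fancb, the highest mean was that of 84 h: Chek1 averaged 19.6 ± 1.45 FPKM at 72 h, 21.1 ± 4.88 FPKM at 84 h and 15.3 ± 3.56 FPKM at 96 h. Its libraries of 84 h, at 14.7 to 26.5 FPKM, spanned both of the neighbouring means.

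**Figure D3:**
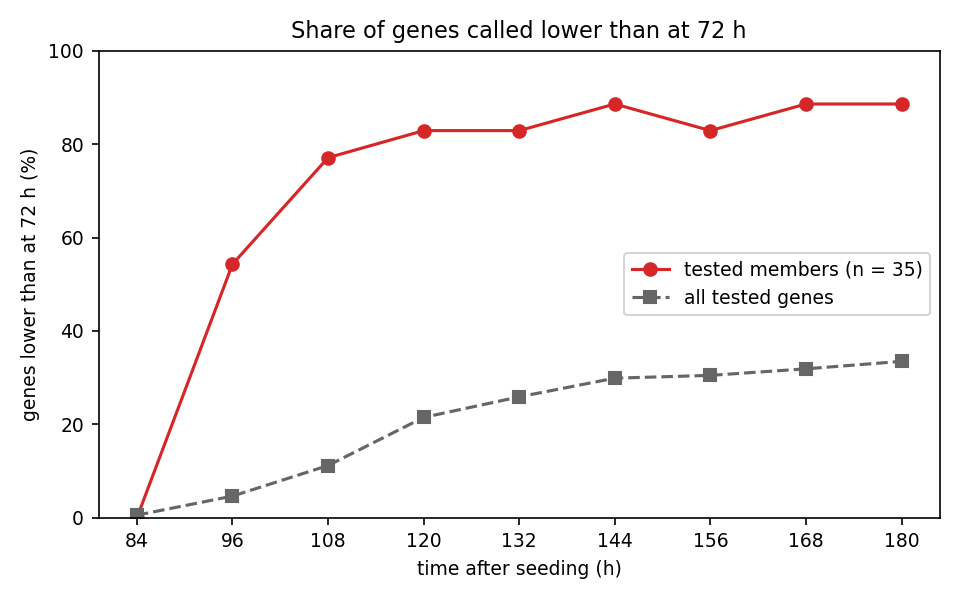
Share of genes called lower than at 72 h (adjusted p under 0.05, limma) at each later time, for the 35 tested members and for all 12259 tested genes. The members reach 54.3% at 96 h and 88.6% at 180 h, and all tested genes reach 4.65% at 96 h and 33.5% at 180 h.

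By window of 36 h, 27 members were lower and 0 higher at 108 h than at 72 h (11.2% and 7.46% of all genes). At 144 h against 108 h 25 were lower and 0 higher (12.7% and 3.03%), and at 180 h against 144 h 2 were lower, Rad51ap1 (-0.45 ± 0.09, adjusted p = 0.00292) and Rad54l (-0.42 ± 0.11, adjusted p = 0.0353), and 0 higher (0.914% and 0.473%). The count of this last window was 1 without replicate 1, 3 or 4 of 144 h or replicate 1, 2 or 3 of 180 h, and 4 without replicate 4 of 180 h. The median log2 change of the tested members was -0.64, -0.55 and -0.19 in the 3 windows, and that of all genes 0.01, -0.06 and -0.05. Over the 31 genes, 36.5% to 124% (median 60.8%) of the difference in mean FPKM between 180 h and 72 h was already there at 108 h, and 83.9% to 126% (median 92.4%) at 144 h. Fancd2, for example, averaged 31.8 ± 1.59 FPKM at 72 h, 14.3 ± 1.95 FPKM at 108 h, 7.47 ± 0.683 FPKM at 144 h and 4.90 ± 1.08 FPKM at 180 h. Palb2 and Ung had the lowest shares by 108 h, 36.5% and 37.8%.

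Brca1 alone among the 31 exceeded 100% by 108 h. Its mean was 45.4 ± 1.71 FPKM at 72 h, 41.5 ± 4.99 FPKM at 84 h, 35.7 ± 6.60 FPKM at 96 h and 31.6 ± 2.23 FPKM at 108 h. The means of the 6 later times lay between 31.4 and 34.9 FPKM. Its change was -0.51 ± 0.10 in the first window (adjusted p = 4.21e-04), -0.01 ± 0.10 in the second and 0.13 ± 0.10 in the third, of which the last 2 did not pass.

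The difference between the last and the first window was tested for itself. For 7 members the change from 144 h to 180 h was less negative than that from 72 h to 108 h (1.21% of all genes were called in that direction), and for 0 more negative (2.06%). They were Msh6 (difference 0.72 ± 0.16, adjusted p = 0.00642), Brca2 (0.71 ± 0.16, adjusted p = 0.00573), Brca1 (0.64 ± 0.14, adjusted p = 0.00817), Blm (0.60 ± 0.17, adjusted p = 0.0395), Eme1 (0.58 ± 0.15, adjusted p = 0.0298), Chek2 (0.57 ± 0.15, adjusted p = 0.0301) and Mre11 (0.47 ± 0.13, adjusted p = 0.0464). This count moved with the settings: it was 2 with a pseudocount of 0.1, 15 without replicate 4 of 84 h and replicate 1 of 96 h, and 27 with array weights, which also called 4 as more negative. It moved with single libraries too. It was 3 without replicate 1 or 2 of 72 h, replicate 1 of 108 h, replicate 2 of 144 h or replicate 4 of 180 h, 4 without replicate 2 of 108 h or replicate 3 of 180 h, and 12 without replicate 4 of 108 h.

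No single step of 12 h held a called change: 0 of the 35 passed in any of the 9 steps by limma, in either direction. All genes had few calls as well: 0.571% lower and 0.742% higher at 84 h against 72 h, 0.286% and 0.139% at 96 h against 84 h, 0.0245% and 0.0326% at 108 h against 96 h, 0.00816% each way at 120 h against 108 h, 0.00816% lower at 132 h against 120 h and at 180 h against 168 h, and 0% otherwise. At an unadjusted p under 0.05, 23 of the 35 were lower at 96 h than at 84 h and 12 at 108 h than at 96 h, while 0 were at 180 h against 168 h; 0 were higher in any step. The adjusted count rests on single libraries of 84 h and 96 h: over the 9 steps it was 20 without replicate 1 of 96 h, 9 without replicate 1 of 84 h, and 60 with array weights.

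**Figure D4:**
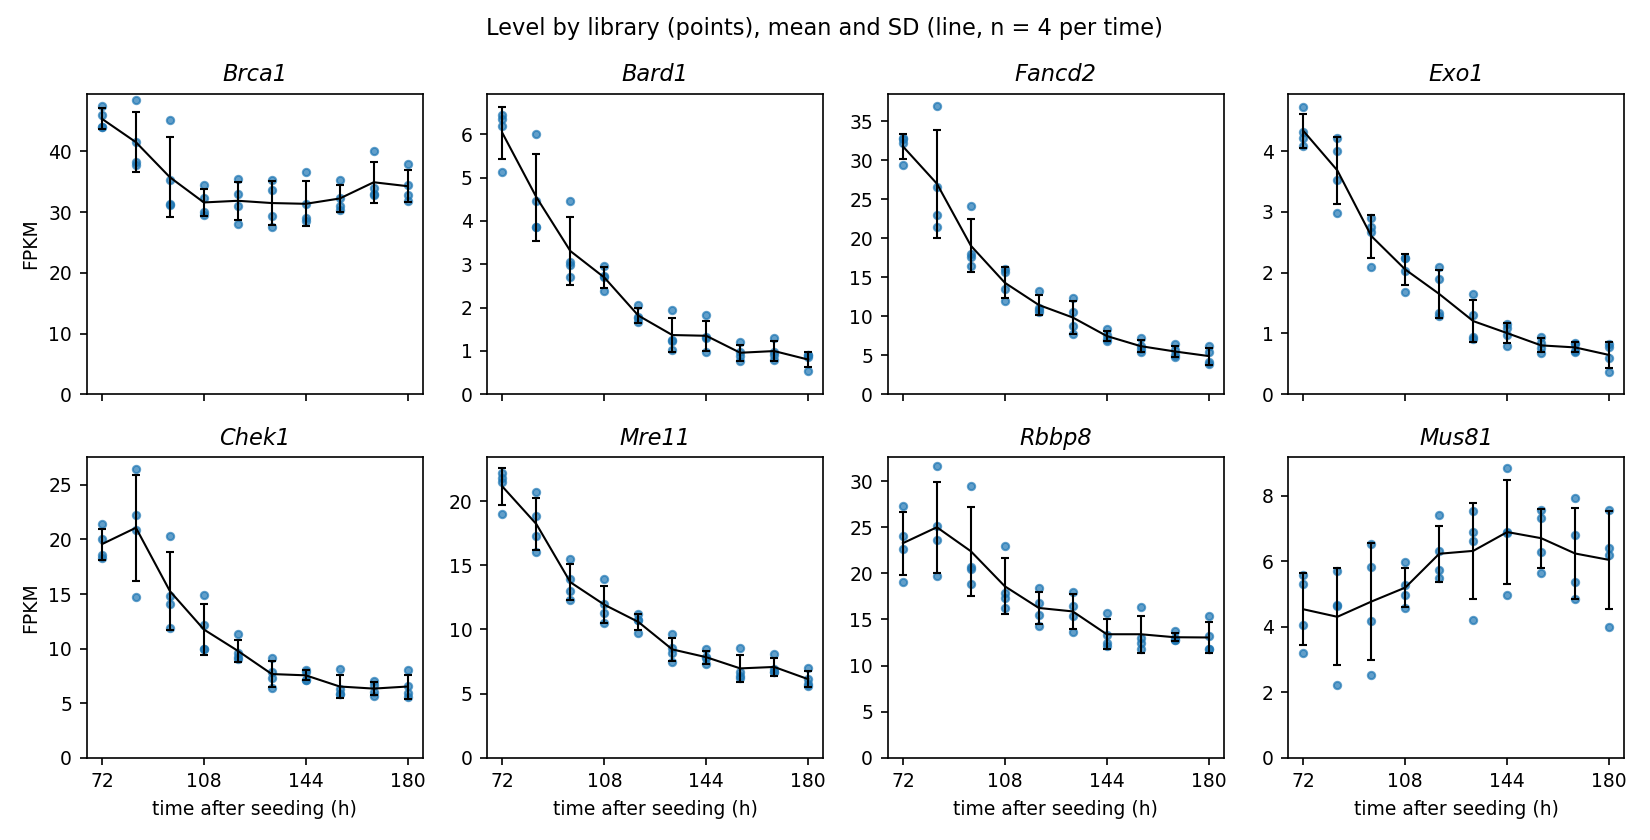
FPKM of 8 genes in each library (points) with the mean and SD (line and bars, n = 4 per time) against time after seeding. Bard1, Fancd2, Exo1 and Mre11 are highest at 72 h and lowest at 180 h, and Chek1 is highest at 84 h. The means of Brca1 lie between 31.4 and 34.9 FPKM from 108 h on. Rbbp8 levels off near 13.0 FPKM, and Mus81 overlaps between times.

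Partner genes were compared within libraries, where the ratio of their FPKM does not depend on library scaling. For the test, 0.1 FPKM was added to each value before the log2 ratio was taken, so the tested ratio is not fully free of scaling. Of 10 pairs listed 9 could be computed, since Atm was not analysed, and 7 differed between 180 h and 72 h (exact two-sided permutation test, 4 libraries against 4, adjusted over the 9 pairs). Each of the 7 had an exact permutation p = 0.0286, the smallest this design can give, and adjusted p = 0.0367. The ratio of Brca1 to Bard1 was 36.3 to 63.9 in the libraries of 180 h, against 6.81 to 8.57 in those of 72 h, a difference of 2.38 ± 0.18 (SE) on the log2 scale. The ratio of Brca2 to Palb2 was 0.131 ± 0.0265 at 180 h and 0.367 ± 0.0622 at 72 h (log2 difference -1.37 ± 0.19). Bard1 and Brca2 thus stood lower against their partners at 180 h in every library. The ratio of Eme1 to Mus81 was below 1 in all libraries of 180 h, at 0.149 to 0.395, and above 1 in all of 72 h, at 1.07 to 2.18 (-2.66 ± 0.37). For Xrcc2 and Xrcc3 the ratio was 0.143 ± 0.0385 at 180 h and 0.855 ± 0.196 at 72 h (-2.49 ± 0.24). Members of these last pairs moved unequally on the axis that separates libraries of the same time. Per SD of its score, Mus81 moved by 0.25 and Eme1 by -0.07, Xrcc3 by 0.23 and Xrcc2 by -0.03. The part of this axis in the ratios was not tested.

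Smaller shifts separated Mre11 from Rad50, whose ratio was 0.938 ± 0.0743 at 180 h and 1.68 ± 0.0752 at 72 h (-0.84 ± 0.06), and Rad54l from Rad54b, at 3.44 ± 0.679 for 180 h and 5.63 ± 0.795 for 72 h (-0.79 ± 0.16). The ratio of the mismatch repair genes Msh6 and Pms2, from different heterodimers, was 2.26 ± 0.0672 at 180 h and 2.46 ± 0.116 at 72 h (-0.13 ± 0.04). Its call rests on the 0.1 FPKM added: with nothing added, the ratios were 2.20 to 2.33 at 180 h and 2.32 to 2.59 at 72 h, which overlap, and the exact permutation p was 0.0571 (adjusted p = 0.0735). The other 6 pairs passed with nothing added too, each with adjusted p = 0.0429 by the exact permutation test. In the other 2 pairs no difference was detected and the libraries overlapped. Fancd2 to Fanci was 2.22 ± 0.322 at 180 h and 2.11 ± 0.156 at 72 h (0.03 ± 0.12, exact permutation p = 0.829, adjusted p = 0.932), and Chek1 to Chek2 was 1.75 ± 0.224 at 180 h and 1.71 ± 0.0309 at 72 h (0.01 ± 0.10, exact permutation p = 0.943). With 4 libraries a time these last results do not show that the ratios are equal.

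**Figure D5:**
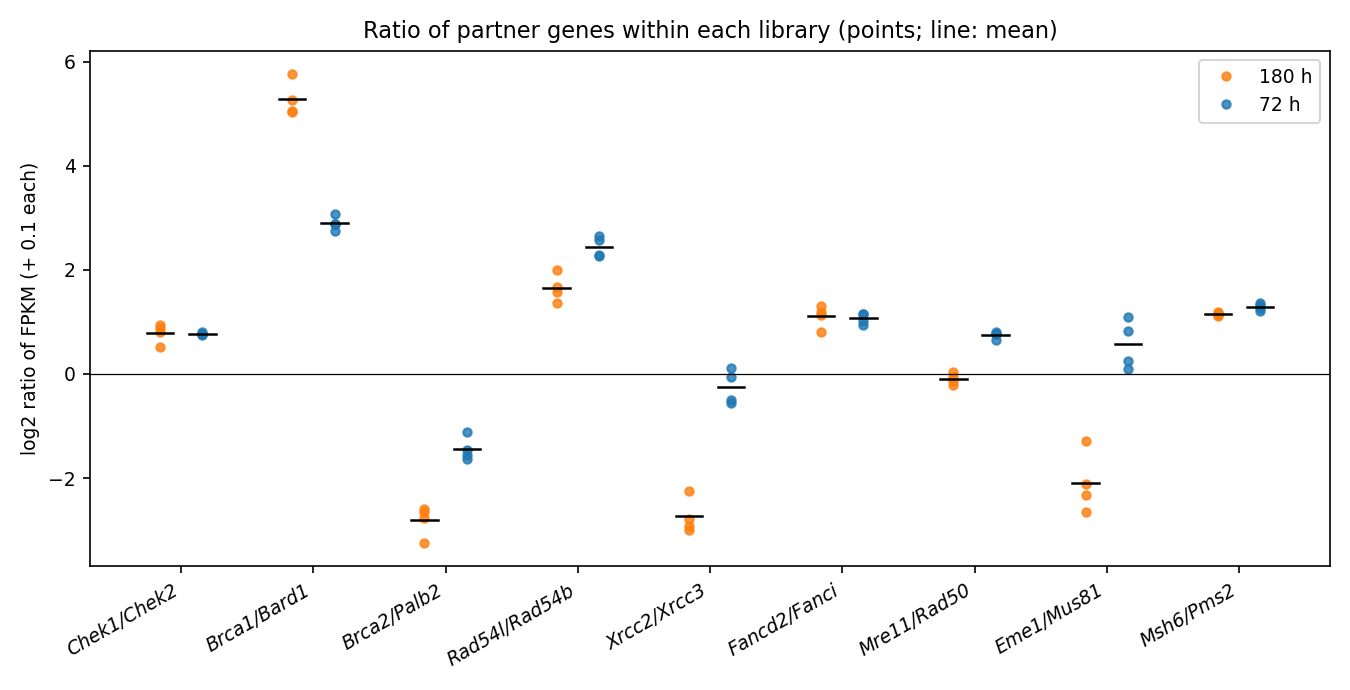
Log2 ratio of FPKM (with 0.1 added to each value) of 9 pairs of partner or related genes in each library of 180 h (left of each pair) and 72 h (right), with the mean as a line. The pairs Brca1/Bard1, Brca2/Palb2, Xrcc2/Xrcc3 and Eme1/Mus81 shifted by over 1 on the log2 scale, and Fancd2/Fanci and Chek1/Chek2 overlap.

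Other repair and damage genes were followed in 9 lists by function. Over the 159 tested genes of these lists 93 were lower and 12 higher at 180 h than at 72 h, beside the 33.5% and 15.8% of all genes. Of 25 other recombination genes 20 were lower and 0 higher (median log2 change -0.90), with Fignl1 at -2.21 ± 0.13 and the resolvase Gen1 at -2.0 ± 0.12. Of 12 other Fanconi genes 7 were lower (median -0.50). Ube2t, the conjugating enzyme that serves FANCL, averaged 7.31 FPKM at 180 h and 51.4 FPKM at 72 h (-2.65 ± 0.14), and Usp1, whose product removes that ubiquitin (-1.53 ± 0.15), and Atad5 (-1.72 ± 0.12) fell too.

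In checkpoint and break signalling 21 of 27 genes were lower and 0 higher (median -0.60), led by Clspn, the claspin that brings CHK1 to ATR (-2.23 ± 0.10), and the phosphatases Cdc25c (-1.99 ± 0.14) and Cdc25b (-1.62 ± 0.15). Of 14 translesion and bypass genes 11 were lower and 0 higher (median -0.47), with Rad18 at -1.56 ± 0.14, Hltf at -1.36 ± 0.14 and the polymerase Polh at -1.20 ± 0.13.

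Of 4 other mismatch repair genes tested 4 were lower and 0 higher (median -0.91). The lists of end joining, base excision and direct reversal, and nucleotide excision genes held calls in both directions. In end joining 7 of 15 genes were lower and 1 higher (median -0.30): Polq, the polymerase of the alternative route, was at -1.70 ± 0.12, Parp2 at -1.37 ± 0.10 and Xrcc6, which encodes Ku70, at -0.85 ± 0.12, whereas Parp3 rose (0.78 ± 0.24, adjusted p = 0.00621). In base excision and direct reversal 8 of 20 were lower and 3 higher (median -0.33), with Tdp1 (-1.31 ± 0.09), Lig1 (-1.20 ± 0.30) and Tdp2 (-1.15 ± 0.14) lower and Neil1 (0.38 ± 0.13) and Smug1 (0.33 ± 0.10) higher. In nucleotide excision 10 of 21 were lower and 1 higher (median -0.19), with Rad23b and Gtf2h3 at -0.66 ± 0.08 and -0.66 ± 0.11, Ccnh at -0.55 ± 0.14, and Uvssa at 0.41 ± 0.09.

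Targets of p53, the factor that many damage signals reach, moved both ways: 5 of 21 were lower and 7 higher (median 0.10). Phlda3 (1.42 ± 0.49, adjusted p = 0.0167), Bax (1.06 ± 0.30, adjusted p = 0.00429) and Tp53inp1 (0.97 ± 0.17, adjusted p = 2.08e-05) rose, and Plk2 (-0.91 ± 0.13), Rps27l (-0.73 ± 0.13) and Ppm1d (-0.52 ± 0.10) fell. Beside all of these stood the genes of cell division. Of 28 S phase genes 24 were lower and 0 higher (median -1.72), with Rrm2 at -2.44 ± 0.13, Gins1 at -2.28 ± 0.19 and Cdc6 at -2.27 ± 0.13, and all 17 mitotic genes tested were lower (median -2.46), with Mki67 at -3.28 ± 0.18, Top2a at -3.20 ± 0.16 and Ect2 at -2.95 ± 0.12. The part of this in the change of the repair genes was not tested.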

How the data were processed

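Libraries came from a stranded messenger RNA kit, read from both ends, per the labels' protocols. Each library has 1 deposited file of FPKM per NCBI gene ID. Per the submitters' processing notes, the authors used Trimmomatic 0.32, Cufflinks 2.2.1, SAMtools 1.0 and FastQC; for the aligner, build, annotation and strand setting the entry is: not given in the sources used here. Of 27868 lines in a file, 23 lack a gene ID and were left out, and lines of 1 ID were summed (634 IDs). RefSeq's table (CriGri-PICRH-1.0) served only to name genes and find neighbours, and 23196 of 26793 IDs matched. Genes at 1 FPKM or more in 4 or more libraries entered limma (version 3.58.1, R 4.3.3) as log2(FPKM + 1), with 1 mean per time point, trended and robust variances and 30 residual degrees of freedom, adjusted over 12259 genes. The procedure was tested on simulated data with independent noise in each gene and library. The real libraries share an axis of variation within times, so that test cannot show how the calls behave under it. Changes on this scale understate those of low genes. Partner ratios used 0.1 FPKM added to each value and exact tests in scipy 1.17.1. Library values are given for the 8 members with the largest fall among those called, for both genes of each pair and for a few others that results turn on; of each other list, up to 3 called genes in each direction are named, though some results are not reported here. Members and lists were chosen with earlier results of these data known. No pair of libraries held identical values. The alternatives tried were another pseudocount, other filters, median-ratio scaling, a replicate block, array weights, variances without trend or robust fitting, and leaving out libraries.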

Additional observations from a re-analysis of the deposited data

Results flagged for a closer look

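In 3 of the 90 groups of 4 libraries examined (each gene, and each partner ratio, at 180 h and at 72 h) 1 library lay far from the other 3, where chance gives about 5% of groups. They were Bard1 at 180 h, where replicate 2 had 0.540 FPKM, Fancb at 180 h, where replicate 1 had 1.56 FPKM, and Ung at 180 h, where replicate 2 had 4.37 FPKM. Each of these was the lowest of its group, and each gene's call at 180 h held without that library.

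The change of 7 genes differed between the window from 144 h to 180 h and the window from 72 h to 108 h by the test of the difference itself (limma, log2 scale, last window minus first). The differences were 0.64 for Brca1, 0.71 for Brca2, 0.47 for Mre11, 0.60 for Blm, 0.58 for Eme1, 0.57 for Chek2 and 0.72 for Msh6.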

How the results depend on the processing

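Over 8 alternative settings, 271 of 276 gene-level results at 180 h against 72 h kept their direction and their side of the threshold; the exceptions were Nbn (2 settings), Brca1 with median-ratio scaling, and Mus81 (0.55, adjusted p = 0.00102) and Xrcc3 (0.42, adjusted p = 7.33e-04), which passed as higher with array weights. With median-ratio scaling 2696 genes of the table were higher and 2988 lower, against 1938 and 4101 without it, the median of all genes moved to 0.01, and 29 members were lower. The number lower at 180 h against 144 h was 4 with a pseudocount of 0.1, a filter of 5 FPKM, the replicate block, or without replicate 4 of 84 h and replicate 1 of 96 h, and 12 with array weights. It was 1 to 4 on leaving out 1 library. The number less negative in the last window than in the first was 2 with a pseudocount of 0.1, 15 without the 2 libraries named above and 27 with array weights, which also called 4 as more negative, and 3 to 12 on leaving out 1 library. Calls over the 9 steps of 12 h numbered 1 with the filter of 5 FPKM, median-ratio scaling or the replicate block, 3 without the 2 libraries, 60 with array weights and 0 to 20 on leaving out 1 library (1 without replicate 4 of 108 h, replicate 1 or 4 of 132 h, replicate 4 of 156 h or replicate 4 of 168 h). With array weights 2 members were higher at 108 h than at 72 h, 1 at 144 h than at 108 h, and 27 genes of the 9 other repair lists were higher at 180 h than at 72 h. The cause of these shifts was not tested. Alternatives on the 9 times and the 9 steps were chosen after seeing the data. Same-numbered libraries of different times did not all deviate together: over 180 pairs the correlation of their deviations was -0.78 to 0.77 (median 0.01), with 60 over 0.1, and it was -0.45 to -0.12 between 180 h and 72 h. The numbers were not without order, since the correlation had a median of 0.30 (54 of 80 pairs over 0.1) for times an even number of 12 h steps apart and of -0.26 (6 of 100 over 0.1) for the others. This split was made after seeing the data. On the axis that separates libraries of the same time, replicate 1 scored below 0 at 72, 96, 120, 144 and 168 h and above 0 at the other 5 times. The replicate block left 31 members lower at 180 h. It fits a constant shift per replicate number, so it cannot take up a deviation that changes sign between times. Partner ratios with a pseudocount of 1 gave the same 7 pairs past the threshold, and with none, an alternative chosen after seeing the data, 6 of them without Msh6/Pms2 (-0.12, exact permutation adjusted p = 0.0735); leaving out a library was not tested there, since 4 against 3 cannot reach 0.05. Absolute depth is unknown, so no detection limit can be given for genes near or under 1 FPKM, such as Fancf, Exo1, Bard1 and Brca2 at 180 h.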
